A study of Sus scrofa with 16 samples.

Results

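The regions described here were open in newborn lung and spleen and in none of the other 4 newborn tissues, as far as the deposited peak lists show. They were chosen by the presence or absence of a consensus peak: the peaks of the 6 newborn lists on chromosomes 1 to 18 were merged into 243693 union regions, and 1376 of these overlapped a lung and a spleen peak but no heart, kidney, muscle or liver peak. Those 1376 members were 0.565% of all union regions. Presence in lung and spleen and absence elsewhere are therefore not findings. The accessible chromatin regions (ACRs) were mapped by Omni-ATAC, an ATAC-seq protocol in which nuclei from frozen tissue are cut by a transposase wherever DNA is accessible. The animals were female domestic crossbred pigs, described in the study's methods as Berkshire and Tibetan hybrids, and no treatment was applied. Spleen, lung, liver, kidney, heart and skeletal muscle were taken from newborns, which the labels place on the day of birth (day 0) and the methods at 1 day of age, and liver also at day 28 (suckling) and day 180 (adult), and each of these 8 groups had 2 replicates. Per the study's methods the pigs of a stage were full sibs, and the same pair of newborn animals gave lung and spleen. Since whole organs were used, a small fraction of cells with very open chromatin and a large fraction with slightly open chromatin cannot be told apart.

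Lung and spleen are both rich in blood vessels, resident macrophages and connective tissue, and both exchange leukocytes with the blood. Each also has cells of its own, such as the surfactant-producing alveolar epithelium of the lung and the lymphoid and red pulp cells of the spleen. Distal ACRs are often enhancers, short stretches of DNA bound by transcription factors. Factors of the ETS family, among them SPI1 in myeloid and B cells, RUNX factors in blood cells, C/EBP factors in myeloid and alveolar epithelial cells, and NKX2 factors such as NKX2-1 in lung epithelium recognise short DNA words.

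In all, 8 members are shown as sequence, because they are among the strongest outside promoters or lie nearest to a gene of a marker list, and because each holds a searched motif. Each line gives 200 bp of the RefSeq Sscrofa11.1 assembly around the lung summit, and none overlaps an annotated exon. Capitals mark every match to a searched motif on either strand. The member near TMEM72 held, in this order, a GATA word (AGATAA, minus strand), an NKX2 word (CACTTGA, minus strand) and a C/EBP word (TTGCNNAA). The member near SLITRK6 held a TEAD word (ACATTCC), a C/EBP word and an IRF word (GAAANNGAA) in the same order in 2 copies, each 63 bp from its counterpart, and a further C/EBP word.
Intergenic, nearest start site TMEM72, chr14:91277522-91277721, + strand: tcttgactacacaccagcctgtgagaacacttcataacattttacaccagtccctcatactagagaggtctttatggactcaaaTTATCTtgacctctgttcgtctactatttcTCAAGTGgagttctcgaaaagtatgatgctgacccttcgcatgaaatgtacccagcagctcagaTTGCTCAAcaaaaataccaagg
Intergenic, nearest start site SLITRK6, chr11:56395199-56395398, + strand: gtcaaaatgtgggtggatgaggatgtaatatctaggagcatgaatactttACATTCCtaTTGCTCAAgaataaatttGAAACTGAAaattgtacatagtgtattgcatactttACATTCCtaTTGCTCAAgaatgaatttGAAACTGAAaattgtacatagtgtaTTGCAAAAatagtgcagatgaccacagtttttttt
Intergenic, nearest start site MROH2B, chr16:25919361-25919560, + strand: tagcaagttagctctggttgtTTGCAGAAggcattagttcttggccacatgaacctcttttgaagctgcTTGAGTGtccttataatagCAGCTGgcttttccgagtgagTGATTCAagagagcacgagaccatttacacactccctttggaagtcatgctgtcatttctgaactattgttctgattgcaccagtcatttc
Intergenic, nearest start site CEBPA, chr6:43058465-43058664, + strand: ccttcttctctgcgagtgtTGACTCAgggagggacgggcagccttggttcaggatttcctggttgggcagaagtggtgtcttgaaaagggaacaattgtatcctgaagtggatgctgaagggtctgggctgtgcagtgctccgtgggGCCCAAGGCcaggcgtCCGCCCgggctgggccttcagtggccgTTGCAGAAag
KAT6B intron, chr14:77394468-77394667, + strand: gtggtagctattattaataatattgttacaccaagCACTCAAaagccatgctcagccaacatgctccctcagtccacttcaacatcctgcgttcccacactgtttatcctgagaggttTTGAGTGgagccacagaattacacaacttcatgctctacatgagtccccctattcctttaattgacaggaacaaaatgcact
Intergenic, nearest start site IL6, chr9:91402308-91402507, + strand: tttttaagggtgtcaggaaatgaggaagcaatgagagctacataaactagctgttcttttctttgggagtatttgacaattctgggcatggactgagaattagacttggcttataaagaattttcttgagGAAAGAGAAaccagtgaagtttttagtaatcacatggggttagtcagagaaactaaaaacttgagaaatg
Intergenic, nearest start site KDR, chr8:41875058-41875257, + strand: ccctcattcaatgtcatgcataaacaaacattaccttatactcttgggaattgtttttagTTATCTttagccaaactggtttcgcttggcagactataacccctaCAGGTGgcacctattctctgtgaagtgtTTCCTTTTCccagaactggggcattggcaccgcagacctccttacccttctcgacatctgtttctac
BLNK intron, chr14:107685710-107685909, + strand: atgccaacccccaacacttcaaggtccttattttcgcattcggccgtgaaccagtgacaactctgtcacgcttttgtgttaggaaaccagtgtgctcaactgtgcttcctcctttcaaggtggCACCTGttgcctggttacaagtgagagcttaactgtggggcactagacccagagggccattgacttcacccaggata
The MROH2B window held C/EBP, NKX2 and AP1 words and an E-box of the CAGCTG type. In the CEBPA window the capitals are AP1, TFAP2 (GCCNNNGGC), SP (GGGCGG, minus strand) and C/EBP words, and in the KAT6B window an NKX2 word on each strand. The IL6 window held an IRF word, the KDR window a CAGGTG E-box between a GATA word and an IRF word, and the BLNK window a CAGGTG E-box on the minus strand.

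The newborn lists held between 54830 (muscle) and 128184 (kidney) peaks on these chromosomes, with 77408 in lung and 81289 in spleen, and no read counts stand in the files, so the depth behind a peak was not analysed here. Absence from a list means that no peak was called there, not that the chromatin was closed. The lung and spleen labels matched their defining genes: 14 of 15 lung epithelium genes had a promoter peak in lung against 7 in spleen, and 12 of 12 B cell genes and 15 of 17 T and NK cell genes had one in spleen against 6 and 5 in lung. Other tissues had some too: kidney and liver had 8 and 9 for lung epithelium, 8 and 8 for B cells and 7 and 9 for T and NK cells. Regions shared by lung and spleen were mostly open more widely. Of 36739 regions with peaks in both, 19559 (53.2%) had peaks in all 6 tissues and 1376 (3.75%) in these tissues alone. Adding liver alone gave 1490 regions, kidney alone 889, heart alone 355 and muscle alone 144. Among the 15 tissue pairs, lung and spleen stood in place 10 by the number of regions open in that pair only, between heart and liver (1550) and heart and lung (1301). Kidney and liver led with 12168.

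At the edge of the rule, 35 members (2.54%) had a peak of another tissue within 100 bp, and 262 (19.04%) within 500 bp. The closest was a member near VCAN, with a heart peak 3 bp away, at 5.30 and 9.45 in the lung replicates and 4.73 and 4.45 in the spleen replicates. Just outside, 38 of the 2878 regions with lung, spleen and exactly 1 other tissue overlapped that tissue's peak by at most 100 bp. A region near KITLG, for example, was left out through a kidney peak that overlapped by 4 bp, although its lung values were 5.56 and 63.8 and its spleen values 11.5 and 7.82. These values, like all peak values below, are −log10 p of the peak in replicates 1 and 2, taken from the deposited lists, and they depend on depth, so they are compared only within a list.

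Most members were weak peaks. The median of the smaller replicate value was 5.12 in lung (range 3.03 to 56.2) and 6.38 in spleen (3.18 to 56.6). Only 504 members (36.6%) lay above the middle of the lung list and 502 (36.5%) above that of the spleen list. Single-tissue regions were weak too. The median percentile in the lung list was 39.2 for members and 38.8 for regions open in lung only. In the spleen list it was 39.4 for members and 35.2 for regions open in spleen only. The irreproducible discovery rate (IDR), which measures how well a peak's rank repeats between replicates, was 0.05 or lower for 99 members (7.19%, Wilson 95% interval 5.95 to 8.68) in lung and for 172 (12.5%, 10.9 to 14.4) in spleen, and for 18 (1.31%) in both. For comparison, 11.2% (10.7 to 11.7) of the 16895 regions open in lung only reached it in lung and 8.90% (8.51 to 9.30) of the 19775 regions open in spleen only reached it in spleen. Over the whole lists, 20.6% of lung peaks and 25.9% of spleen peaks did, so the members were below both. These shares describe peaks from the same lists that chose the members. All intervals here cover counting error only. Across the 1376 members the replicate values had a Spearman rho of 0.392 in lung and 0.460 in spleen, and the lung and spleen values one of 0.0663. These correlations are descriptions across regions that share libraries and depth. Members strong in lung were not, as a rule, the members strong in spleen.

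**Figure D1:**
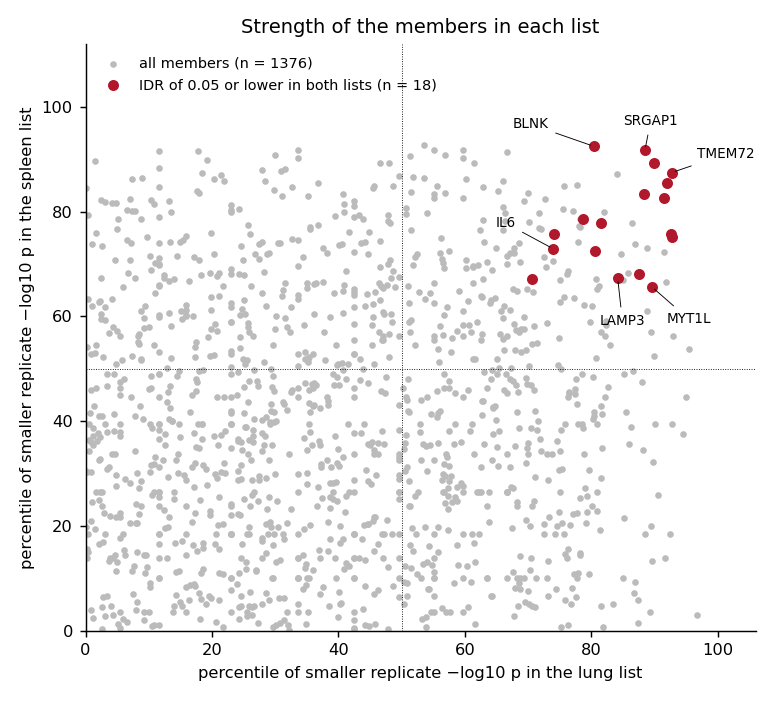
Percentile of each member's peak within the lung list (x axis) and within the spleen list (y axis), ranked by the smaller replicate −log10 p. Grey points are all 1376 members, red points the 18 with an IDR of 0.05 or lower in both lists, and dotted lines mark the middle of each list. The members fill most of the square, and none of the 18 red points lies below 65.7 on the spleen axis or 70.6 on the lung axis.

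The strongest members lay outside promoters, as did most members: promoters held 92 of the 1376 (6.69%). An intronic member of KAT6B, which encodes a histone acetyltransferase, at chr14:77394289-77394781 had values of 23.5 and 88.3 in lung and 36.9 and 39.9 in spleen. An intronic member of SRGAP1, a GTPase-activating protein of Slit and Robo signalling, had values of 20.6 and 61.5 in lung and 49.1 and 105 in spleen. The intergenic member nearest to TMEM72, 107444 bp from its start site, had values of 32.3 and 108 in lung and 31.2 and 63.7 in spleen. In each of these the 4 values were far above the medians of the members, and lung replicate 2 exceeded replicate 1. The latter held for 1214 of the 1376 members (88.2%) in lung and for 1087 (79.0%) in spleen. The whole lung list showed it too, with a median of 6.12 in replicate 1 and 22.7 in replicate 2.

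Further strong members were these. The member near SLITRK6, a neuronal transmembrane protein gene, had values of 29.3 and 55.3 in lung and 27.2 and 47.7 in spleen. A member in an intron of CHN2, which encodes a GTPase-activating protein for Rac, had values of 28.0 and 85.6 in lung and 22.6 and 37.2 in spleen. These members were well above the median in all 4 libraries. An intronic member of BLNK, the adaptor that links the B cell receptor to its downstream enzymes, was uneven in lung at 12.4 and 78.3 and even in spleen at 54.4 and 60.8. The other members among the first 12 were nearest to TNS1, SERPINI2 (in an intron of WDR49), ANKRD44, MROH2B, MGAT5 and LOC110256366, with smaller replicate values of 11.3 to 20.4 in lung and 17.6 to 30.4 in spleen. Of these 12, the ones near TNS1, ANKRD44 and MGAT5 missed an IDR of 0.05 in one of the lists. The 18 members that reached it in both further included introns of KAZN, INPP5B, IMMP2L and PDGFD, the last a platelet-derived growth factor gene, and regions nearest to ANKRD46, IL6, ZFP36L1 and MYT1L.

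In promoters, defined as 2200 bp upstream to 500 bp downstream of a start site, the first members were at FGF11, LAMP3, CARHSP1, PLEC, ACSL5, ADCY9, ROR1 and SPHK1. LAMP3 encodes a lysosomal membrane protein known from mature dendritic cells and from alveolar type II cells. Its member, 3 bp from the start site, had values of 15.1 and 46.6 in lung and 11.9 and 25.9 in spleen. It was the only promoter among the 18 members with an IDR of 0.05 or lower in both lists. That is 5.56% of the 18, near the 6.69% of all members. The member shared by FGF11 and TMEM102 had values of 8.27 and 17.6 in lung and 15.01 and 35.3 in spleen. The member at ROR1, a receptor tyrosine kinase-like gene, had 12.99 and 56.0 in lung, at percentile 81.5 of that list, and 9.56 and 8.98 in spleen, at percentile 56.9. The other 5 had smaller replicate values of 6.82 to 8.50 in lung and 8.92 to 13.4 in spleen. In lung replicate 1, LAMP3 and ROR1 fell within the range of the first 12 outside promoters and the other 6 below it.

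**Figure D2:**
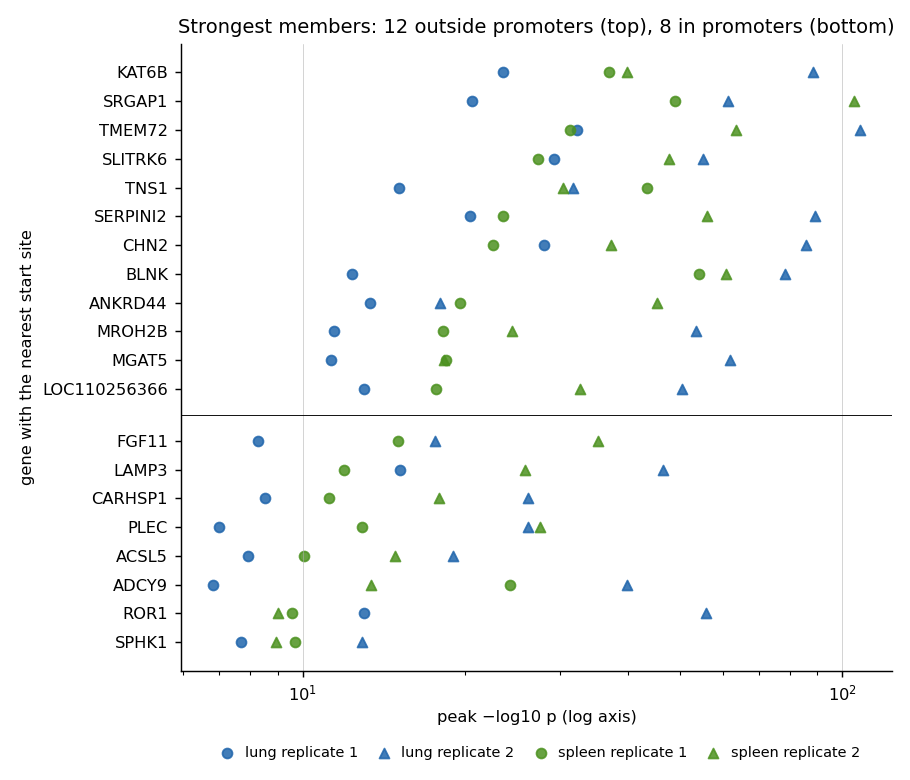
Peak −log10 p (log axis) in both lung replicates (blue) and both spleen replicates (green) for the 12 strongest members outside promoters (above the line) and the 8 strongest in promoters (below it), named by the nearest start site. Circles are replicate 1 and triangles replicate 2. In lung the triangle lies to the right of the circle in every row.

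Most members were distal. Promoters held 92 of them (6.69%, 5.48 to 8.13), exons 108 (7.85%), introns 622 (45.2%) and intergenic DNA 554 (40.3%). The promoter share was higher than in lung-only regions (3.94%) by 2.75 percentage points (Newcombe 95% interval 1.51 to 4.22) and higher than in spleen-only regions (4.56%) by 2.13 points (0.890 to 3.60), and was below that of all union regions (9.22%). Against the 1301 regions open only in heart and lung (5.53%) the difference was 1.15 points, with an interval of -0.678 to 2.98 that includes no difference. The intervals for exons, introns and intergenic DNA all included 0 against each of these sets. The median distance to the nearest start site of a protein-coding gene (PCG) was 29237 bp, against 39432 bp for lung-only, 31197 bp for spleen-only and 44131 bp for heart-and-lung regions. The median width of a member was 565 bp, and being a union of peaks it is wider by construction than the peaks in it. The members' own lung peaks had a median of 420 bp and their spleen peaks 366.5 bp. Lung-only regions had a median of 410 bp, spleen-only regions 321 bp and heart-and-lung regions, also unions, 616 bp. A region counted as promoter where any base of it overlapped one, so wider regions can reach promoters more often. Promoter shares at equal width or around the summit were not taken.

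Members were spread over all 18 chromosomes at 0.432 (chromosome 8) to 0.877 (chromosome 12) per Mb. With gaps of up to 50000 bp allowed, 1144 stood alone, and 7 groups held 3 or more. The group of 4 spanned chr13:71960107-72068161 with DNAJB8, a chaperone gene, nearest to 2 members and GATA2, which encodes a factor of blood and endothelial progenitors, nearest to the other 2. Its member 687 bp from a GATA2 start site had values of 9.01 and 15.7 in lung and 6.09 and 7.76 in spleen. Groups of 3 lay at KIAA0040, RBMS1, FAM92A, SPHK1, LMO4 and ST6GAL1. By nearest start site, ETS1, which encodes a factor of lymphocytes and endothelium, had the most members, 5. KIAA0040, LMO4, QKI, ST3GAL1 and ST6GAL1 had 4 each, and 25 genes had 3, IL6, IRF8, ZEB2, APP, COL12A1, GFRA1 and RPLP1 among them. The ETS1 members were 22331 to 226248 bp away, with smaller replicate values of 3.51 to 7.499 in lung and 3.52 to 7.10 in spleen, and the best placed in lung stood at percentile 64.7 of its list. A total of 10 genes tied for the most members in the gene or promoter, with 3 each, among them APP, ARHGEF12, FRMD4A, MAML2, PGM5, RAD51B, RBMS1, ST6GAL1 and ZNF366. All were long, from 138 to 709 kb against a median of 20.7 kb for all PCGs.

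Marker genes of cell types found in lung or spleen were looked up by position. Of 18725 PCGs, 91 (0.486%) had a member in a promoter, 742 (3.96%) in the gene or a promoter, and 1165 (6.22%) were nearest to one by start site. Over 163 genes of 11 marker lists, 5 (3.07%) had a member in a promoter, 12 (7.36%) in the gene or a promoter and 29 (17.8%) were nearest to one, each above the share of all PCGs. No significance test of these counts was run. The rule keeps only regions without a peak in the other newborn tissues, and the lists were picked for cell types of lung or spleen. A higher share than over all PCGs can follow from these choices, and was not tested apart from them. Of the 13 matched genes of heart, kidney, liver and muscle, none was hit in any of these ways. The rule itself removes regions with a peak in those tissues, so this is no control for the marker shares.

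For blood cell genes, the members were these. Among 17 T and NK cell genes, TCF7 held one in an intron, with values of 9.05 and 20.5 in lung and 5.83 and 6.41 in spleen, and PRF1 and GATA3 were nearest to one. Among 12 B cell genes it was BACH2 and CIITA. The CIITA member, in the gene of the class II transactivator, was strong in spleen replicate 1 at 45.1 but 12.1 in replicate 2, and had 4.44 and 11.4 in lung. None of 19 myeloid genes held a member, and CEBPA and IRF8 were among those nearest to one. The member near CEBPA, a factor of myeloid and alveolar cells, had 12.5 and 75.3 in lung and 8.07 and 9.66 in spleen. Of 16 pan-leukocyte genes, IKZF1, DOCK2 and FLI1 held members. The IKZF1 promoter, of a lymphoid transcription factor, had 6.14 and 18.7 in lung and 29.0 and 35.9 in spleen. That placed it at percentile 53.5 of the lung list and 86.4 of the spleen list. Of 16 cytokine and receptor genes, CXCR5 held one and IL6 was nearest to one, at 9.62 and 40.2 in lung and 14.5 and 23.4 in spleen. Of 15 genes of antigen presentation and interferon response none held one, and B2M and IRF1 were nearest to one. Of 9 erythroid and megakaryocyte genes, EPOR, the erythropoietin receptor gene, and TAL1 had promoter members.

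For vessel and stroma genes, 5 of 17 endothelial genes were nearest to a member: CDH5, KDR, EMCN, SOX17 and TAL1. The member 18779 bp from KDR, the receptor for vascular endothelial growth factor, had 23.6 and 68.4 in lung (percentile 90.0) and 6.38 and 7.95 in spleen (percentile 39.4). The TAL1 promoter was the reverse, with 3.39 and 3.42 in lung (percentile 1.48) and 38.4 and 84.9 in spleen (percentile 89.7). Of 12 matrix and smooth muscle genes, PDGFRB held one and COL3A1, DCN and ACTA2 were nearest to one. The member near COL3A1, a fibrillar collagen gene, had 6.79 and 21.9 in lung and 43.1 and 40.3 in spleen. Of 16 mesenchyme genes, NKX2-3, a factor needed for spleen formation, had a promoter member with 4.53 and 4.17 in lung and 24.4 and 24.5 in spleen, and NKX2-5 was nearest to one. Of 15 lung epithelium genes, NAPSA, a protease of surfactant protein processing, had a weak promoter member with 3.80 and 20.1 in lung and 4.51 and 9.51 in spleen, and FOXA2 was nearest to one. Members such as TAL1, NKX2-3 and KDR were thus strong in one list and met the rule through a weak peak in the other.

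The lists of later liver were not used to choose the members. Of the 1376 members, all without a newborn liver peak, 316 (23.0%, 20.8 to 25.3) overlapped a peak of liver at day 28 and 251 (18.2%, 16.3 to 20.4) one at day 180, and 123 (8.94%) overlapped both. Of all union regions without a newborn liver peak, 13.6% did so at day 28 and 6.99% at day 180. At day 28 the members' share exceeded that of lung-only regions (6.92%) by 16.05 points (13.9 to 18.4), that of spleen-only regions (16.2%) by 6.77 points (4.56 to 9.12) and that of heart-and-lung regions (10.8%) by 12.1 points (9.32 to 14.9). At day 180 the differences were 12.5 points (10.5 to 14.6), 8.41 points (6.41 to 10.6) and 9.02 points (6.43 to 11.6). Each was in the same direction on at least 16 of 18 chromosomes. Among the 10 tissue pairs without liver, lung and spleen ranked 3 at day 28, after kidney and spleen (25.7%) and heart and kidney (24.4%), and ranked 1 at day 180, before heart and spleen (15.9%). With the same number of top peaks kept in every newborn list, which gave 1637 such regions, the shares were 49.3% and 41.4%. By construction this choice drops weaker newborn liver peaks, keeping 54830 of 115504. These regions can therefore hold a deposited newborn liver peak, and their shares are not comparable with those above.

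**Figure D3:**
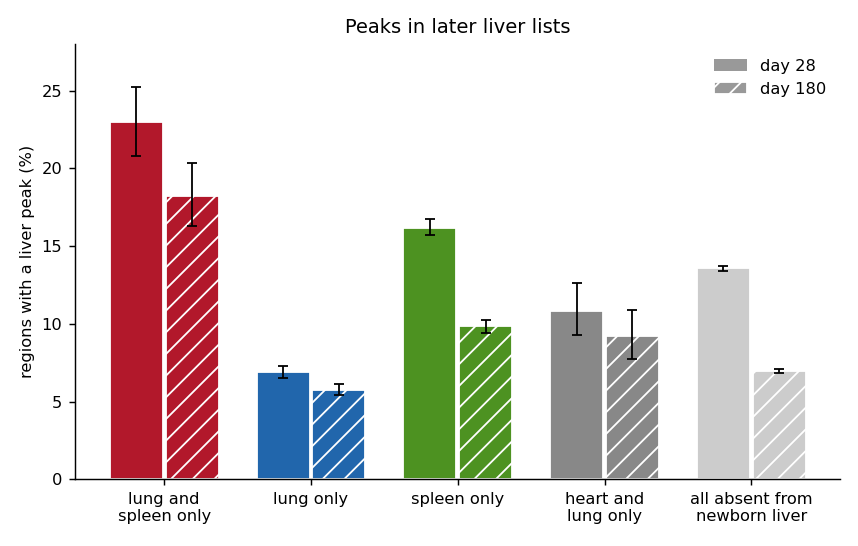
Share of regions (y axis, percent) that overlap a peak of liver at day 28 (plain bars) or day 180 (hatched bars), for members, lung-only, spleen-only and heart-and-lung regions and all regions without a newborn liver peak. Bars start at 0 and error bars are Wilson 95% intervals. The members reach 23.0% and 18.2%, above the other sets at both ages.

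Width and strength differed between the sets, so the shares were also taken in narrower terms. Within 200 bp around the summit, 19.3% of members overlapped a day 28 peak and 16.9% a day 180 peak, against 15.5% and 9.46% of spleen-only and 6.32% and 5.24% of lung-only regions. In 3 bands of equal percentile width in the spleen list, the day 180 share exceeded that of spleen-only regions by 5.64, 10.3 and 8.82 points from the weakest to the strongest, with intervals above 0. At day 28 the differences were 9.29, 6.01 and 1.35 points, and in the strongest band the interval of -3.37 to 6.92 included 0. Most of the later peaks were themselves weakly reproducible. Peaks with an IDR of 0.05 or lower covered 27 members (1.962%) at day 28 and 57 (4.14%) at day 180. Over all union regions without a newborn liver peak these shares were 0.957% and 1.92%. Lung-only regions had 0.367% and 1.91%, and heart-and-lung regions 0.692% and 2.31%. At day 180 the members' share was 2.51 points above that of spleen-only regions (1.56 to 3.71), and at day 28 0.481 points, with an interval of -0.155 to 1.37.

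Named members differed in the age at which liver had a peak. The BLNK member had 3.49 and 9.24 at day 28 and 4.67 and 14.02 at day 180, and the WDR49 member 5.84 and 18.8 and 5.30 and 12.4. Both were present at each later age. The medians of the liver lists in replicates 1 and 2 were 7.78 and 10.96 at day 28 and 18.4 and 26.1 at day 180. Only the replicate 2 value of the WDR49 member at day 28 was above its median. The ADCY9 promoter, of an adenylyl cyclase gene, was listed only at day 180, with 45.3 and 47.8, and the IKZF1 promoter likewise, with 9.44 and 26.9. LAMP3 was listed only at day 28, with 4.11 and 5.78. The member near ANKRD46, among the strongest in lung at 32.7 and 142, was listed at day 180 with 36.1 and 57.6 and not at day 28. Whether these regions lay just under the calling limit in newborn liver was not tested.

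Members carried motifs of both single-tissue sets. The words were searched on both strands in 200 bp around the lung summit (spleen summit for spleen-only regions) in the 1284 members outside promoters. ETS words (CCGGAAGT or CAGGAAGT) occurred in 5.37% of members, 2.16% of lung-only and 5.11% of spleen-only regions, and in 2.99% of all regions. The excess over lung-only regions was 3.22 points (2.09 to 4.61) and over spleen-only regions 0.266 points (-0.886 to 1.67). The SPI1 word (GAGGAAGT) occurred in 4.21% of members, 1.66% of lung-only, 6.16% of spleen-only and 2.46% of all regions, a difference of 2.54 points (1.55 to 3.80) from the former and of -1.95 points (-2.98 to -0.666) from the latter. In heart-and-lung regions the shares were 2.36% for ETS and 1.302% for SPI1. Read backwards, which keeps the base composition, the SPI1 word differed by -0.176 points (-0.780 to 0.698) and 0.507 points (-0.0789 to 1.37), intervals that include 0. The ETS words read backwards still exceeded lung-only regions, by 0.808 points (0.0431 to 1.84). The intervals were not adjusted for the 24 motifs searched.

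The NKX2, TEAD and FOX words were more frequent in lung-only than in spleen-only regions. The NKX2 words, either CACTTGA or its relative with the letters CACTCAA, occurred in 10.3% of members, 11.4% of lung-only, 6.17% of spleen-only and 5.55% of all regions, and exceeded spleen-only regions by 4.11 points (2.53 to 5.93). Against lung-only regions the difference was -1.15 points (-2.77 to 0.696). Read around the members' spleen summits, these differences were 2.40 points (0.946 to 4.09) and -2.86 points (-4.36 to -1.14). The TEAD word occurred in 5.92% of members, 8.41% of lung-only, 2.77% of spleen-only and 4.22% of all regions. The FOX word (TGTTTAC) followed with 4.98%, 6.68%, 2.42% and 3.86%. For TEAD and FOX the members lay between the single-tissue sets, with both intervals away from 0. The GATA word, spelled AGATAA, was below both, at 8.88% against 12.7% and 11.5%, and 10.5% of all regions. With windows of 100 bp both differences had intervals that included 0 (-1.33 points, -2.48 to 0.0673, and -1.32 points, -2.46 to 0.0662), as did that from spleen-only regions at the members' spleen summits (-1.50 points, -3.09 to 0.323). In heart-and-lung regions it was 18.6%.

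The C/EBP word exceeded both sets in the deposited lists but not under every choice of peaks. It occurred in 17.8% of members, 13.2% of lung-only, 12.1% of spleen-only, 10.5% of heart-and-lung and 10.5% of all regions. The differences were 4.59 points (2.53 to 6.84) and 5.78 points (3.73 to 8.02). With lists ranked by replicate 1 alone they fell to 0.643 (-1.01 to 2.46) and 1.12 (-0.522 to 2.92), and with lists ranked by replicate 2 alone they were 2.38 (0.419 to 4.50) and 4.85 (2.91 to 6.95). Of the 24 motifs, CTCF (AGNGGGCGC, 0.935%) and SP (10.8%) were also above both sets, SP also when read backwards. For CTCF, windows of 100 bp gave 0.131 (-0.110 to 0.654) and 0.162 points (-0.0749 to 0.684), and with promoters included the difference from lung-only regions was 0.298 points (-0.0952 to 0.952), so its excess did not hold there. The CAGGTG E-box was at 12.3% against 18.7% in lung-only and 10.6% in spleen-only regions, the CAGCTG E-box at 19.9% against 13.7% and 22.5%, and the RUNX word (TGTGGTT) at 5.53% against 5.06% and 7.71%. The IRF word was at 7.399% against 6.01% and 9.71%, and its ETS-IRF relative (GGAANNGAA), which can overlap it and the ETS words, at 8.02% against 5.56% and 8.70%. All regions held these 5 at 16.7%, 19.8%, 4.63%, 5.94% and 6.03%, CTCF at 1.25% and SP at 9.81%. The IRF word exceeded lung-only regions by 1.39 points (0.0302 to 2.99), and read backwards by 1.60 points (0.238 to 3.21), so that excess was not particular to the word.

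**Figure D4:**
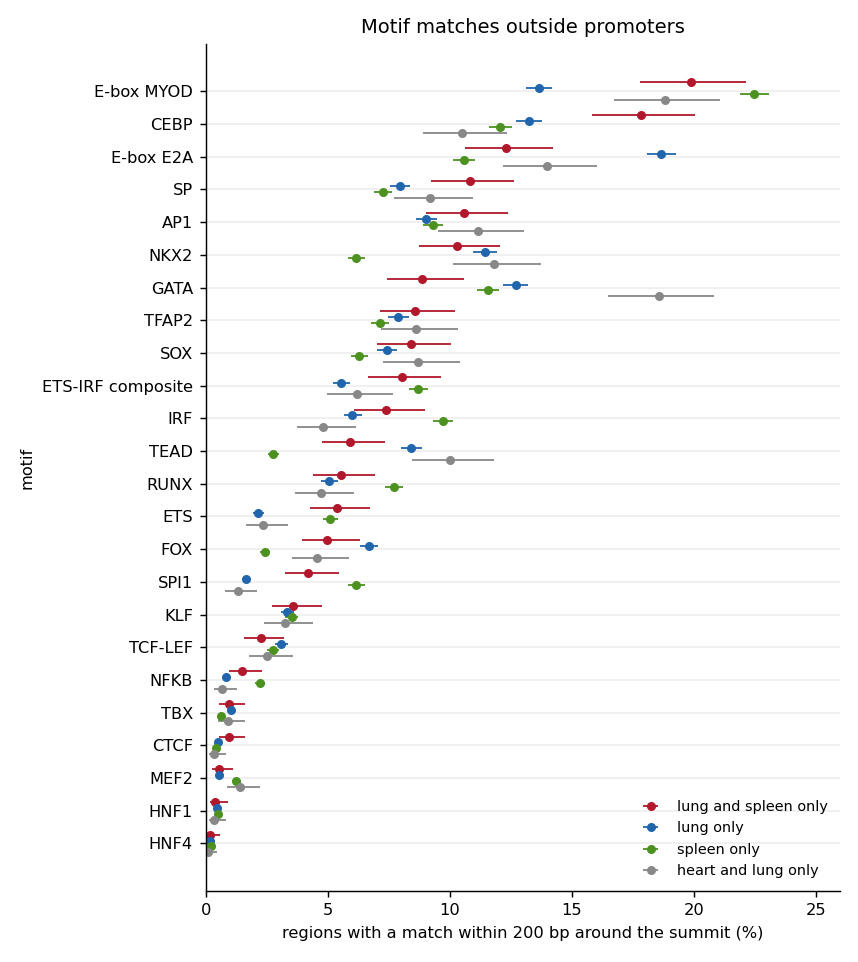
Share of regions outside promoters (x axis, percent) with a match to each of 24 motifs (y axis) within 200 bp around the summit, for members (red), lung-only (blue), spleen-only (green) and heart-and-lung regions (grey). Points are shares and lines Wilson 95% intervals. For ETS the red point lies with green, for NKX2 with blue, and for C/EBP to the right of all other sets.

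For AP1 (TGANTCA), KLF (CCACACCC), TCF-LEF (CTTTGAT), TFAP2, TBX (AGGTGTGA), HNF1 (GTTAATNAT) and HNF4 (CAAAGTCCA) the intervals against lung-only and spleen-only regions both included 0. Their shares were 10.6%, 3.58%, 2.26%, 8.57%, 0.935%, 0.389% and 0.156% of members, and 8.79%, 2.43%, 2.63%, 10.4%, 0.835%, 1.10% and 0.697% of all regions. The SOX words (ACAATGG or ACAAAGG) were at 8.41% and 6.68%, NFKB (GGGANTTTC) at 1.48% and 0.993%, and MEF2 (CTATTTATA or CTAAAAATA) at 0.545% and 1.22%. SOX exceeded spleen-only regions (2.13 points, 0.686 to 3.81), NFKB exceeded lung-only regions (0.660 points, 0.109 to 1.49), and MEF2 was below spleen-only regions (-0.695 points, -1.02 to -0.100). At the members' spleen summits SOX differed from spleen-only regions by 0.570 points (-0.737 to 2.12) and MEF2 by 0.00631 points (-0.500 to 0.789), intervals that included 0.

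The same member could be read from either summit. The lung and spleen summits of a member lay a median of 60 bp apart, and 606 (44.0%) within 50 bp. Among the 1284 members outside promoters, the SPI1 word was found around the spleen summit but not the lung summit in 32, and the opposite in 8. For RUNX these counts were 46 and 26. The NKX2, TEAD, FOX, CAGGTG and SOX words were found more often at the lung summit alone. NKX2 was found around the lung summit alone in 54 and the spleen summit alone in 32, TEAD in 29 and 16, FOX in 25 and 12, the CAGGTG E-box in 75 and 37, and the SOX words in 39 and 19. C/EBP, at 74 and 64, AP1, at 42 and 44, and SP, at 35 and 36, were close to even. GATA, although more frequent in lung-only than in spleen-only regions, was found at the lung summit alone in 41 and at the spleen summit alone in 56. Read around the spleen summit, the SPI1 share of members was 6.07%, and it then differed from spleen-only regions by -0.0819 points (-1.31 to 1.40). With windows of 100 bp the counts were 11 at the lung and 33 at the spleen summit for SPI1, 51 and 31 for NKX2, and 24 and 18 for TEAD, and those of GATA turned to 43 and 31. The lean to the lung summit varied with the choice of peaks. With an IDR of 0.05 or lower in all newborn lists NKX2 turned to 4 and 7 and FOX to 1 and 2, and the CAGGTG E-box was at 6 and 5. With lists ranked by replicate 2 alone NKX2 was at 53 and 45, and with equal peak numbers TEAD was at 26 and 22, FOX at 25 and 20 and SOX at 44 and 41. SPI1 and RUNX had the higher count at the spleen summit under each of these choices.

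**Figure D5:**
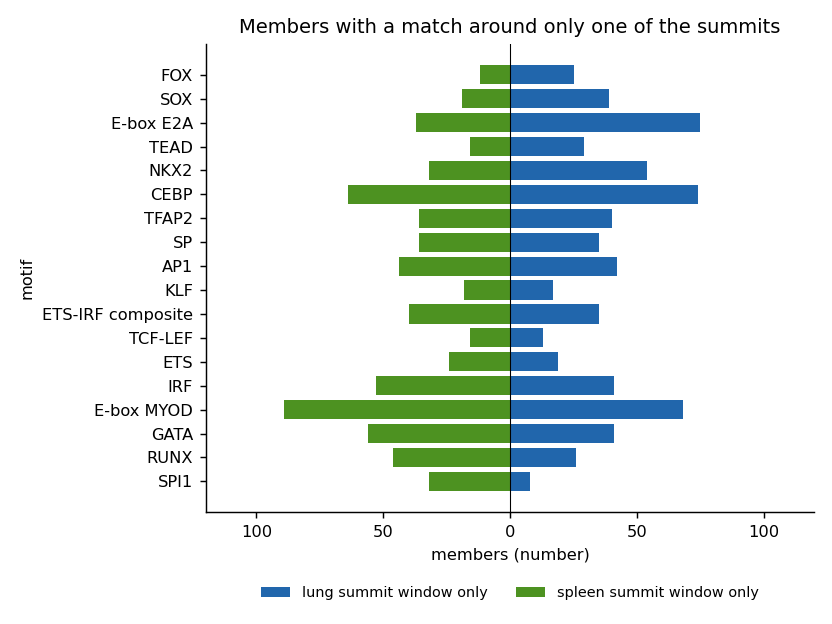
Number of members outside promoters (x axis, counted to both sides from 0) with a motif match in 200 bp around the lung summit but not the spleen summit (blue, right) or the reverse (green, left), for the motifs (y axis) with at least 20 such members. FOX, SOX, the CAGGTG E-box, TEAD and NKX2 lean to the lung side, SPI1 and RUNX to the spleen side, and C/EBP, SP and AP1 are nearly even.

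Words of both kinds were also counted in the same window. Around the lung summit, an NKX2, TEAD or FOX word was present in 251 members (19.5%) and an SPI1, ETS or RUNX word in 179 (13.9%), and 26 (2.02%) had both. SPI1 and NKX2 words met in 3 members and SPI1 and TEAD words in none of 1284. C/EBP, at 17.8% of members the most frequent of these words, met SPI1 in 9, RUNX in 20, TEAD in 20 and NKX2 in 25. None of these counts was compared with other regions or with those that the single shares would give. A low or high count therefore has no reading here. Members with a day 180 liver peak less often held an NKX2 word, at 5.96% of 218 against 11.2% of 1066 without one, a difference of -5.20 points (-8.38 to -0.860), and more often an IRF word, at 11.9% against 6.47%, a difference of 5.45 points (1.45 to 10.6). Members with a day 28 peak more often held an ETS word, at 8.42% of 285 against 4.50% of 999 (3.92 points, 0.845 to 7.88), and a CAGGTG E-box, at 17.2% against 10.9% (6.28 points, 1.83 to 11.4). At day 180 the intervals for TBX (2.19 points, 0.565 to 5.33) and SP (4.64 points, 0.115 to 10.2) were also above 0. These splits were among 24 motifs at each age and the intervals were not adjusted for that number.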

How the data were processed

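ATAC-seq peaks of 16 libraries (8 groups of 2 replicates) were taken from 8 deposited lists, 1 for each group. Per the methods, the authors aligned reads with Bowtie2 to Sscrofa11.1, filtered them with SAMtools 1.3.1, called peaks with MACS2 in each replicate and merged replicates with IDR. In the deposited lists the replicate columns hold −log10 p of the peak, the p column was the smaller of both, and the score is the IDR scaled by the authors, where 540 stands for 0.05. The columns name the replicate by number.

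Newborn peaks (6 lists) on chromosomes 1 to 18 were merged where they shared at least 1 bp, with Python 3.11.15, pandas 2.3.3 and SciPy 1.17.1. Genes came from RefSeq annotation release 106 of the same assembly. Of the marker lists, genes were matched by symbol. Named members were ranked by the lower of their percentiles in the lung and spleen lists: the first 12 outside promoters, the first 8 in them, the genes with most members, and up to 4 genes for each of 12 lists. The 8 sequences were picked among these after their values were seen. The members, lists and motifs were chosen with earlier results of these data known. No significance test was run: shares carry Wilson and differences Newcombe 95% intervals. The code was tested on simulated data. Alternatives for the peaks were an IDR of 0.05 or lower, equal numbers of top peaks (54830) and ranking by each replicate alone. Further ones were a 500 bp distance to other tissues, overlap of lung and spleen peaks, other promoters, windows and summits. Chosen after seeing the data were overlap around the summit, the bands of strength, and the other motifs and summit counts under each choice of peaks. Chromosome X and scaffolds were left out by the rule. Some genes are not reported here.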

Additional observations from a re-analysis of the deposited data

Results flagged for a closer look

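Chromosome X, which the rule leaves out, held 29 regions open only in newborn lung and spleen among 6096 union regions. This share of 0.476% (Wilson 95% interval 0.331 to 0.682) is close to the 0.565% on chromosomes 1 to 18, and it drew attention only because it lies in data outside the comparisons above.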

How the results depend on the processing

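No paired analysis was run, because every result is a count or share of regions and none comes from a test over samples. Ranking each list by 1 replicate alone, at an equal number of peaks, is called without a replicate below. The peaks ranked still came from lists merged over both replicates, so no library was fully left out. Read depth was not analysed here, and the cause of each change below was not tested unless a construction is named. The 1376 members became 18 with an IDR of 0.05 or lower in lung and spleen and 277 with it in all newborn lists. Other choices of peaks kept the number within 1.5 times. Rank 10 among pairs became 9 with IDR in all lists, 6 with equal peak numbers and 5 to 5 without a replicate. The promoter share became 25.3%, 10.02% and 8.80% to 9.12% under these choices, 5.02% with no other peak within 500 bp, 3.997% with shorter promoters and 8.21% with promoters of all genes. The day 28 and day 180 shares became 33.3% and 27.8% with IDR in lung and spleen, 78.7% and 74.7% with IDR in all lists, 49.3% and 41.4% with equal peak numbers, and 48.5% to 56.1% and 42.9% to 44.1% without a replicate. By construction these last 3 choices drop weak peaks of every newborn list, liver included. With reproducible later peaks they were 1.962% and 4.14%, and around the summit day 28 was 19.3%. SPI1 minus lung-only regions was 4.35 points with IDR in lung and spleen, 4.41 at spleen summits, and 1.88 to 3.76 without a replicate, and turned to -0.176 read backwards. SPI1 minus spleen-only regions turned to 0.198 with IDR in lung and spleen and 0.507 backwards, and was -3.30 with IDR in all lists, -0.0819 at spleen summits and -3.46 to -1.28 without a replicate. The 12 marker genes with a member in the gene or promoter became 0 and 1 under the IDR choices, 19 with equal peak numbers, 16 to 19 without a replicate, 7 with the 500 bp distance and 29 by nearest start site. Of 46 intervals for the other motifs, 24 excluded 0, and 5 did so backwards. Among differences whose interval excluded 0, others that turned were MEF2 minus spleen-only (0.00631 at spleen summits, 0.0328 backwards) and, backwards, GATA (0.992), MYOD (-0.142) and FOX (0.775) minus lung-only. A word read backwards keeps its base composition but not its neighbouring bases, so a CG can arise or be lost. Backwards, the CAGCTG E-box matched 0.234% of members and C/EBP 2.41%, against 19.9% and 17.8% forwards. For such words the backwards interval cannot decide whether a difference belongs to the word. A sign that turned backwards is not a reversal for the word itself.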
